A study of Mus musculus with 6 samples.

Results

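The genes described are those whose products carry glucose, lactate or amino acids across membranes, in group 2 innate lymphoid cells (ILC2s) from mouse visceral adipose tissue (VAT). They were taken by name: every protein-coding gene of the count table whose symbol starts with Slc1a, Slc2a, Slc3a, Slc7a, Slc16a, Slc38a or Slc43a and a digit. This gave 65 of 53278 genes. Of these, 16 belonged to Slc7a, 14 to Slc16a, 12 to Slc2a, 11 to Slc38a, 7 to Slc1a, 3 to Slc43a and 2 to Slc3a. The rule reads symbols only, so it also took Slc7a6os, whose product is not a carrier, and a few carriers of other cargo, such as Slc2a9 (urate), Slc2a13 (myo-inositol) and Slc43a3 (nucleobases).

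The cells came from C57BL/6 mice aged 8 weeks that received 3 intraperitoneal injections of 1 µg recombinant mouse IL-33. VAT ILC2s were then sorted and cultured with IL-2 and IL-7, each at 10 ng/mL, together with either DTA-1 or an isotype control antibody. DTA-1 is an agonist antibody to GITR, a costimulatory receptor of the TNF receptor superfamily, and was given at 5 µg/mL. The sample titles and the study's text name an isotype control, whereas the count columns of these libraries are headed PBS-GITR. The labels do not explain the difference. Each group held 3 libraries, and the labels give 48 h of culture, a time on which the study's own text is not uniform. IL-33, IL-2 and IL-7 were therefore common to all 6 libraries, and neither naive nor uncultured cells were compared. The labels do not say whether the libraries of a group came from separate mice or cultures, so the p-values measure only the spread between these libraries, which may be technical.

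Cells take up hydrophilic nutrients through carriers of the solute carrier (SLC) families. The Slc2a genes encode facilitated hexose carriers of the GLUT family, and Slc16a genes encode carriers of lactate, pyruvate and related molecules (MCT family), some of which need basigin or embigin to reach the cell surface. Slc7a light chains exchange large neutral or cationic amino acids, and many of them function only when bound to the heavy chain CD98hc, encoded by Slc3a2. Slc1a and Slc38a genes encode mostly sodium-coupled carriers of amino acids, among them glutamine, alanine, serine and, for several Slc1a genes, glutamate. In lymphocytes, activation is known to raise demand for glucose, glutamine and leucine, and several of these carriers are established parts of that response.

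The 6 libraries held between 30569351 and 35131329 counts. The 3-count limit that a count of 0 allows was 0.0854 to 0.0981 CPM (counts-per-million), which covers counting error only. All 14 ILC2 markers were detected, at 14663 to 15452 summed normalized counts in the isotype control and 15673 to 20240 in the DTA-1 group, with most of the difference in Il5 (means of 5325 and 8074) and Il2ra (2111 and 2598). Among these markers Icos had the largest fitted fall with DTA-1, with means of 161.9 and 117.97 and a log2 fold change of -0.46. Its fall lay in DTA-1 replicates 2 and 3, while replicate 1 was within the isotype control range. Kit followed, with means of 110.1 and 94.8 and a log2 fold change of -0.22. Il1rl1 (ST2), Gata3 and Tnfrsf18 (GITR) had slightly lower means with DTA-1. The B cell gene Ms4a1, the T cell gene Cd8a and the neutrophil genes S100a8 and S100a9 were at 0 in every library. Through Ly6g and Mpo, the neutrophil list summed to 0 to 1.05 normalized counts with isotype control and 0.162 to 0.961 with DTA-1. Other lists had low sums, which for T cell markers, mostly Cd3g, were 40.9 to 54.1 normalized counts with isotype control and 47.6 to 51.3 with DTA-1. They were 16.6 to 17.3 and 17.2 to 18.2 for B cell markers, almost wholly Cd79b, 12.7 to 13.8 and 9.39 to 13.7 for erythroid markers, and 6.44 to 12.2 and 8.67 to 11.9 for macrophage markers. Endothelial markers, almost wholly Pecam1, were at 18.4 to 24.4 and 10.6 to 18.3, with Cdh5 at 0. Fibroblast markers were at 2.20 to 8.39 and 0 to 3.98. Among them Col1a1 had 60, 56 and 68 counts with isotype control and 0, 9 and 3 with DTA-1, and Pdgfra had 68, 14 and 25 against 0 in each DTA-1 library. The groups overlapped for the others, with 57, 3 and 102 against 0, 0 and 92 for Col3a1 and 11, 4 and 94 against 0, 0 and 31 for Col1a2. Dcn and Lum had few counts. The library labelled DTA-1 replicate 1 stood apart from its own group: its distance to the isotype control libraries, as chi-square per degree of freedom over genes, was 9.64 to 11.3, against 27.1 and 28.2 to DTA-1 replicates 2 and 3. The isotype control libraries lay 11.4 to 17.0 from each other, and DTA-1 replicates 2 and 3 lay 11.4 apart. For single genes such as Epas1, named here after its values were seen, replicate 1 was with its own group. The groups did not overlap for 11.3% of all genes tested, so a single gene of this kind does not bear on the label. Whether DTA-1 replicate 1 received DTA-1 as labelled was not tested, and every 3-against-3 value rests on that label. Results are thus given with all 6 libraries and again without DTA-1 replicate 1. As that library was singled out by its expression values, a call made without it is not an independent test.

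The transporter genes took between 0.472% and 0.502% of the counts of a library. Of the 65 genes, 14 had no count in any library and 4 more had at most 3 counts in every library. Another 12 had more than 3 counts somewhere and did not pass the filter on low counts, which left 35 genes tested among 14361. Levels are given as normalized counts, which are counts-per-million (CPM) scaled by the trimmed mean of M-values (TMM), and 23 of the tested genes had a mean of at least 10. Genes of different length are compared per kilobase of exon.

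Per kilobase, the carriers of large neutral amino acids and of glutamine came first. Slc3a2 was at 299.8 normalized counts per kilobase over the 6 libraries, higher than 98.5% of the genes tested. It was followed by Slc7a8 at 191, Slc1a5 at 169.5 and Slc7a5 at 169.2, of which the last pair could not be put in order, and by Slc38a10 at 84.8. Slc2a1 at 56.0 and Slc16a3 at 50.5 were the first of the hexose and of the monocarboxylate carriers, and their ranges over the 6 libraries overlapped. Among the 23 genes with a mean of at least 10, the median coefficient of variation of the isotype control libraries was 5.57%. It was 8.68% over the 35 transporter genes tested and 10.4% over all genes tested. These sets differ in level, and genes matched for level were not compared.

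**Figure D1:**
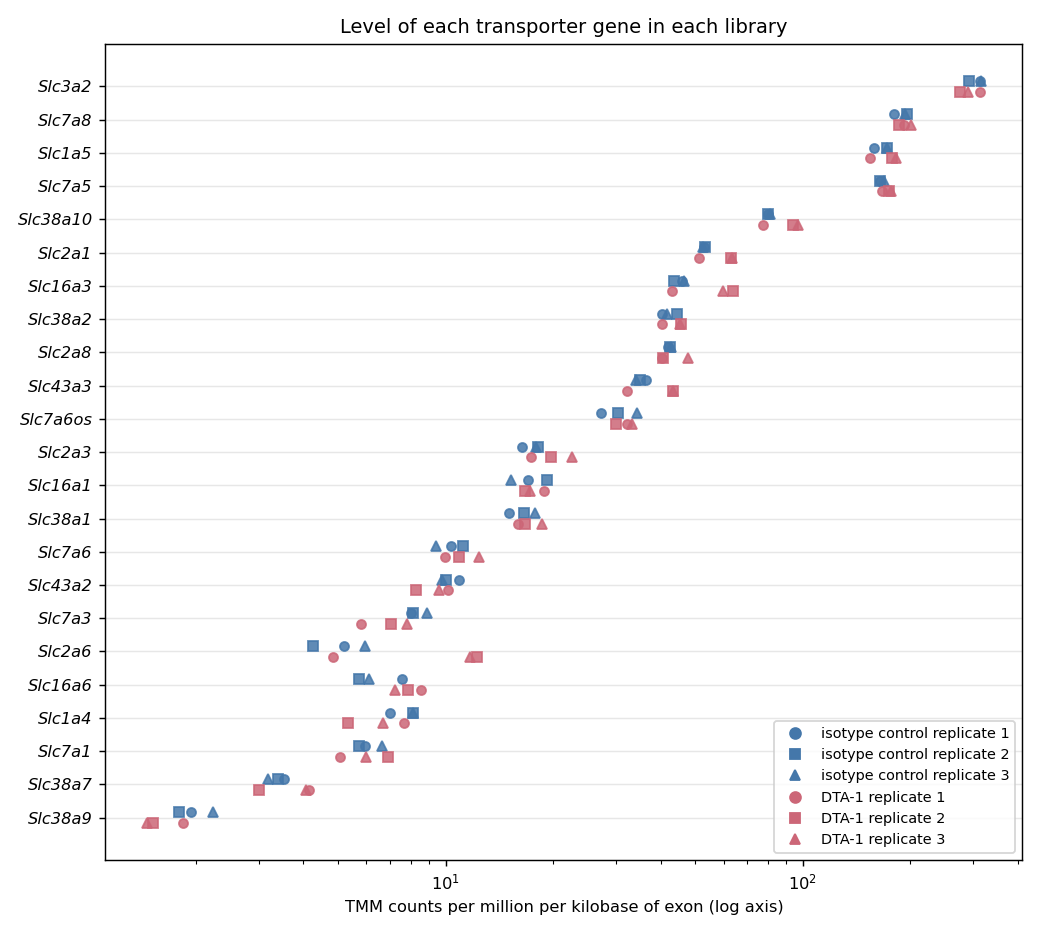
Level of each of the 23 transporter genes with a mean of at least 10 normalized counts, in TMM-scaled CPM per kilobase of exon on a log axis, with 1 point per library, blue for isotype control and red for DTA-1. Slc3a2 is at the top at 299.8 over all libraries, and Slc2a6 has DTA-1 replicates 2 and 3 apart from the other 4 libraries.

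The question of the comparison was which of these genes GITR engagement with DTA-1 altered in activated ILC2s. With all 6 libraries, none of the 35 transporter genes passed the test, and nor did any other gene. A gene was called at an adjusted p under 0.05, from edgeR's quasi-likelihood test over all 14361 genes, and a change of at least 1.5-fold, and 0.0% of all genes tested were called. The smallest adjusted p among the transporter genes was 0.627. DESeq2 called 0 transporter genes and 25 of all genes (0.152%). Using the unadjusted p under 0.05 with the same fold, 3 transporter genes met the rule, Slc2a6 and Slc38a8 with higher and Slc16a4 with lower values in the DTA-1 group, against 1.09% and 1.26% of all genes tested in these directions and 2.35% in either. Slc38a8 and Slc16a4 had few counts and passed the filter only through the group where they were high, so their place in this count is no support. Any fold at that unadjusted p took in 5 transporter genes, the other two being Slc16a3 and Slc16a6, both higher, against 7.22% of all genes (4.11% higher and 3.11% lower).

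Fitted values were higher with DTA-1 for 21 and lower for 14 of the 35 genes, with a median log2 fold change of 0.04 beside -0.01 over all genes tested. That median was -0.01 without DTA-1 replicate 3. For 21 of the 23 genes with a mean of at least 10, the 95% confidence interval lay within 1.5-fold on either side of no change, and the exceptions were Slc2a6 and Slc38a9. Over all 35 transporter genes tested the share was 60.0%, beside 58.9% of all genes tested.

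Without DTA-1 replicate 1, Slc2a6 was called higher, beside 0.744% of 14911 genes (0.583% higher). Slc16a3 and Slc38a10 also had an adjusted p under 0.05 in that edgeR fit, with changes below 1.5-fold, where 1.7% of all genes passed irrespective of fold and 1.35% were higher. In libraries, DTA-1 replicates 2 and 3 were both above every isotype control library for 10 of the 35 transporter genes (28.6%), namely Slc16a3, Slc1a5, Slc2a1, Slc2a3, Slc2a6, Slc38a10, Slc38a2, Slc38a8, Slc43a3 and Slc7a5. Over all genes tested that share was 15.5%. They were both below every isotype control library for 6 genes (17.1%, beside 16.1% of all genes), which were Slc16a4, Slc1a4, Slc38a9, Slc3a2, Slc43a2 and Slc7a3. Slc38a8 and Slc16a4 passed the filter only through the group where they were high, so their place in these counts is no support either. DTA-1 replicate 1 was within the isotype control range for 18 of the 35 genes (51.4%, beside 54.1%).

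**Figure D2:**
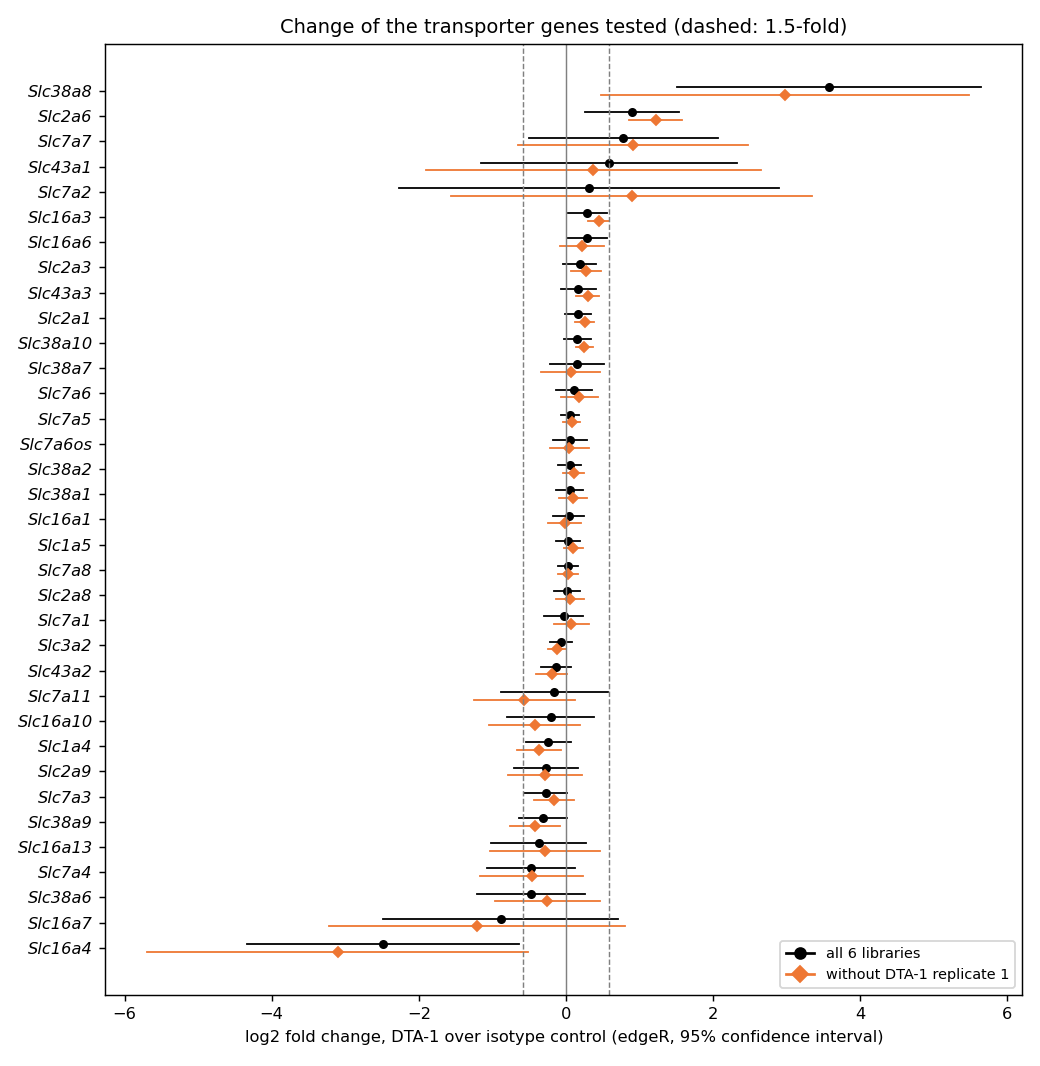
Log2 fold change of DTA-1 over isotype control for the 35 transporter genes tested, with 95% confidence intervals from edgeR, for all 6 libraries in black and without DTA-1 replicate 1 in orange. Most genes sit near 0, inside the dashed lines at 1.5-fold, while Slc2a6 moves from 0.90 to 1.22 and Slc38a8 and Slc16a4 have wide intervals.

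Slc2a6 encodes GLUT6, a hexose carrier of the GLUT family found largely on internal membranes. Its level was 11.1, 9.12 and 12.7 normalized counts in the isotype control and 10.4, 26.2 and 25.0 in the DTA-1 libraries, in replicate order here and for the genes that follow. The first DTA-1 library was thus inside the isotype control range, and the other two were above it. The group means were 10.98 ± 1.80 and 20.5 ± 8.81 (SD, n = 3), and the log2 fold change was 0.90 with a 95% confidence interval of 0.26 to 1.54 and an edgeR adjusted p of 0.627. It was 1.22 (SE 0.16) once that library was left out, where the adjusted p was 0.00573, the lowest of the settings tried, which reached up to 0.999. The gene lies on the minus strand of chromosome 2 (GRCm38, 27021363 to 27027998).

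The mast cell and basophil marker list had its highest sums in the same libraries as Slc2a6, through 2 of its genes. By the study's methods, the sort took cells without FcεRI or other lineage markers that expressed CD45, ST2 and CD117 (Kit). Complete purity was not claimed. The summed level of that marker list was 17.0 to 19.3 normalized counts with isotype control, while the DTA-1 libraries had 14.6, 42.4 and 30.8. Its member Cpa3 (carboxypeptidase A3) had 265, 256 and 154 counts in the isotype control and 211, 605 and 409 in the DTA-1 libraries, and Cma1 (chymase) had 130, 170 and 171 against 114, 442 and 346. These 2 of the 5 list genes tested had an unadjusted p under 0.05 and at least 1.5-fold. All 6 markers of the list were detected. The tryptase gene Tpsb2 overlapped, with 155, 212 and 177 counts against 113, 258 and 158, while Tpsab1 had 26, 16 and 57 against 1, 13 and 33 and the basophil gene Mcpt8 had 26, 23 and 41 against 13, 6 and 22, with lower fitted values in the DTA-1 group. Their part in the level of Slc2a6 was not tested. In bulk RNA, a changed number of cells of a type and a changed amount of RNA per cell cannot be told apart.

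Slc16a3 encodes MCT4, the carrier known for lactate export from glycolytic cells. It had 215, 204 and 218 normalized counts in the isotype control and 201, 299 and 279 in the DTA-1 libraries. As with Slc2a6, replicates 2 and 3 were above and replicate 1 was not, here lying under all isotype control libraries. The means were 212 ± 7.21 and 259.8 ± 51.7 (SD, n = 3), with a log2 fold change of 0.29 (95% confidence interval 0.03 to 0.56; edgeR adjusted p = 0.657). This value was 0.45 (SE 0.06) without DTA-1 replicate 1, with an adjusted p of 0.00823, and 0.18 without DTA-1 replicate 2. The adjusted p ranged from 0.00823 to 0.999 over the settings. The gene lies on the plus strand of chromosome 11 (GRCm38, 120948480 to 120960868).

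Slc38a10 encodes a member of the SNAT family, carriers of glutamine and other neutral amino acids. It had 434, 434 and 438 normalized counts in the isotype control and 419, 509 and 526 in the DTA-1 libraries. Its isotype control libraries were nearly equal and DTA-1 replicate 1 lay just under them. The means were 435 ± 2.67 and 485 ± 57.6 (SD, n = 3), with a log2 fold change of 0.16 (95% confidence interval -0.03 to 0.34; edgeR adjusted p = 0.732). Without DTA-1 replicate 1 it was 0.25 (SE 0.05) with an adjusted p of 0.0481, and the other settings reached up to 0.999. It was 0.09 without DTA-1 replicate 3. The gene is on the minus strand of chromosome 11 (120103960 to 120151346).

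The 250 bases before the RefSeq start of these 3 genes are shown because they were the transporter genes with an adjusted p under 0.05 in the fit without DTA-1 replicate 1. Sequences are from RefSeq (GRCm38.p6), written on the strand of the gene, and the capitals mark ACGTG, the core of the hypoxia response element bound by HIF factors, on either strand.
Slc2a6, chr2:27027999-27028248, minus strand: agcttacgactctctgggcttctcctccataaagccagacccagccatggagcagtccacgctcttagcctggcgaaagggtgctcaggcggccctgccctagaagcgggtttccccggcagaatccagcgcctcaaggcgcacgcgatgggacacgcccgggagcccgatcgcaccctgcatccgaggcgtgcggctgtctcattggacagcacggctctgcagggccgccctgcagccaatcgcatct
Slc16a3, chr11:120948817-120949066, plus strand: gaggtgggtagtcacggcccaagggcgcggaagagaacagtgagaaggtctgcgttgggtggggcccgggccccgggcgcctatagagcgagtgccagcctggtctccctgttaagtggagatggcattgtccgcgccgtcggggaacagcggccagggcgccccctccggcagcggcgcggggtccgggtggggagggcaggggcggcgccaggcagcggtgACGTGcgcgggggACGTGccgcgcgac
Slc38a10, chr11:120151352-120151601, minus strand: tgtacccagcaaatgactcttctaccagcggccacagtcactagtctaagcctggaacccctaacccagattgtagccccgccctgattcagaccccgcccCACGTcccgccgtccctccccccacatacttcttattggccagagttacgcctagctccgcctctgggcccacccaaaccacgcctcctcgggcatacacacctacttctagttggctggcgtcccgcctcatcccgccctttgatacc
Slc16a3 held 2 copies of ACGTG, at positions -27 to -23 and -14 to -10 from the start. Slc38a10 held 1 on the opposite strand, read here as CACGT, at -149 to -145, and Slc2a6 held none. The window of Slc16a3 lies before an internal start, within the span of the gene given above. Of its bases, 14 lie in exons of Slc16a3 itself. The whole window of Slc38a10 lies in an exon of Gm11769, a noncoding gene on the opposite strand. Windows of 48 transporter genes were found, 59 in all, and ACGTG was present in 15 of them (25.4%), against 16.6% of 32851 windows of all genes. The E-box CACGTG, which contains ACGTG, was in 8 of the transporter windows (13.6%, against 6.02% of all windows). TGATGNAA, an amino acid response element, was in 3 (5.08%, against 3.45%), and the kB consensus was in 7 (11.9%, against 7.25%). None of these other motifs was in the 3 windows shown. A match of letters is a description and does not show that a factor binds.

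Among the other hexose carriers, Slc2a1, encoding GLUT1, the main glucose carrier of activated lymphocytes, came first. It had 185, 187 and 184 normalized counts in the isotype control and 179.7, 221 and 223 in the DTA-1 libraries. Again replicate 1 was below and replicates 2 and 3 were above the isotype control range, with a log2 fold change of 0.16 (95% confidence interval -0.02 to 0.35; edgeR adjusted p = 0.722) for all libraries and 0.26 (adjusted p = 0.0634) without replicate 1, where the settings spanned 0.0634 to 0.999. Slc2a3, encoding the high-affinity carrier GLUT3, had 71.6, 79.5 and 78.2 against 75.7, 86.0 and 98.9. Its log2 fold change was 0.19 (95% confidence interval -0.03 to 0.40), and 0.08 without DTA-1 replicate 3. Slc2a8, encoding the intracellular carrier GLUT8, had 88.5, 89.6 and 89.9 against 85, 85.4 and 100.5, with overlapping groups and a log2 fold change of 0.02. Per kilobase, Slc2a1 was at 3.03 times the level of Slc2a3 in the isotype control and 2.98 times in the DTA-1 group. Slc2a4, the insulin-responsive carrier GLUT4 of muscle and fat, had too few counts to be tested, as did Slc2a10, and Slc2a2 had at most 3 counts in a library.

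**Figure D3:**
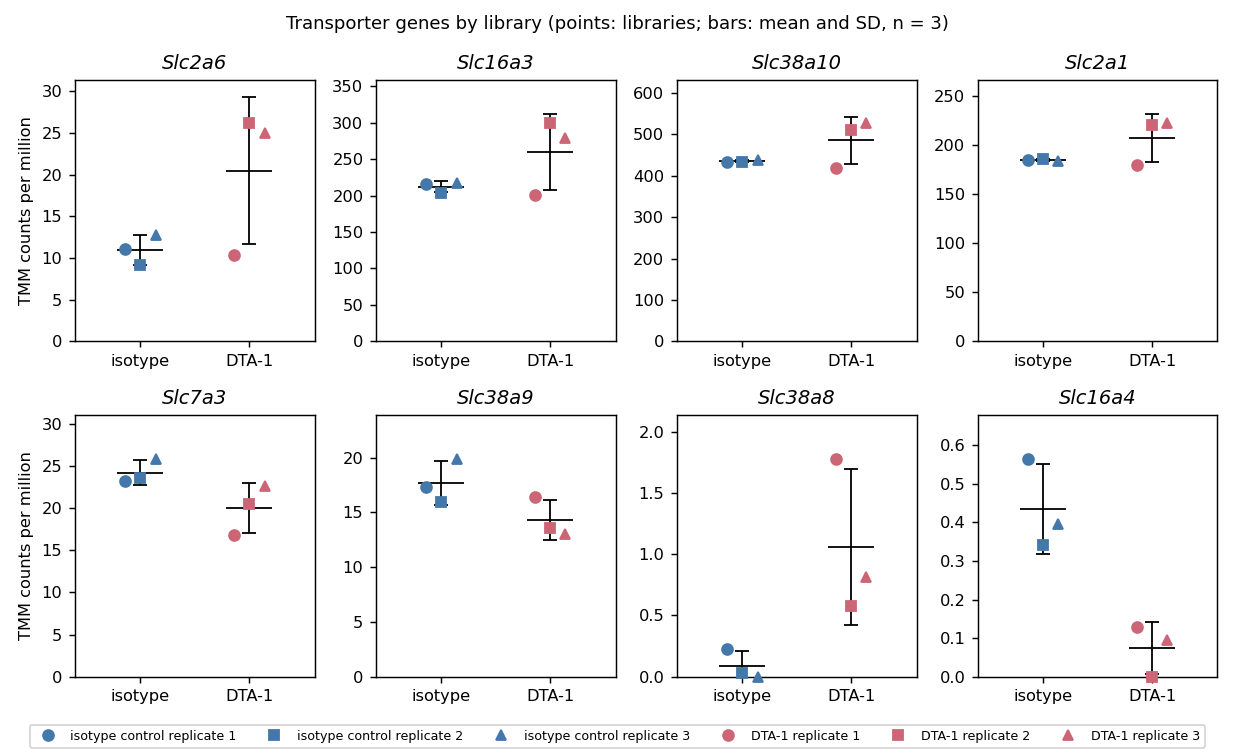
Normalized counts (TMM-scaled CPM) of 8 transporter genes in the 6 libraries, each panel on its own axis from 0, with the mean and SD of each group (n = 3). DTA-1 replicate 1, the circle in the red group, lies at or below the isotype control level for Slc2a6, Slc16a3, Slc38a10 and Slc2a1, and the groups do not overlap for Slc7a3, Slc38a8 and Slc16a4.

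Slc16a1, encoding MCT1, which carries lactate in either direction, had 75.3, 84.9 and 67.7 normalized counts in the isotype control and 83.5, 73.9 and 76.4 in the DTA-1 libraries. The groups overlapped fully, with a log2 fold change of 0.04 (95% confidence interval -0.17 to 0.25) that was -0.04 without isotype control replicate 3 and -0.01 without DTA-1 replicate 1. The level of Slc16a3 over Slc16a1 per kilobase was 2.68 ± 0.385 in the isotype control and 3.19 ± 0.809 in the DTA-1 group (SD, n = 3), also with overlap. Slc16a6, encoding MCT7, had 36.0, 27.4 and 29.2 against 40.7, 37.5 and 34.4. The groups overlapped by 1 library, with a log2 fold change of 0.28 (95% confidence interval 0.01 to 0.55; unadjusted p = 0.0424; edgeR adjusted p = 0.677). Slc16a6 shares bases with Amz2 on the opposite strand, and as the use of strand in counting is not given in the sources used here, reads of the pair may be mixed.

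The partner proteins of these carriers are basigin (Bsg), embigin (Emb) and neuroplastin (Nptn), and none of the 3 was called. Bsg had 549, 512 and 529 normalized counts in the isotype control and 501, 653 and 621 in the DTA-1 libraries, the order of libraries seen for Slc16a3. Emb was the highest of the 3 in normalized counts, at 1194, 1243 and 1206 against 1257, 1365 and 1358, and its groups did not overlap. Nptn had 65.1, 63.8 and 64.3 against 68.3, 70.9 and 66.9, also without overlap, as for 5.26% of all genes tested in that direction. The log2 fold changes were 0.16 for Bsg, 0.13 for Emb and 0.09 for Nptn. Without DTA-1 replicate 1, Bsg was at 0.27 with an edgeR adjusted p of 0.0509, and its adjusted p ranged up to 0.999 over the settings.

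The heavy chain Slc3a2 and its light chains Slc7a5 and Slc7a8 had overlapping groups and narrow intervals. Slc3a2 had 1049, 975 and 1052 normalized counts in the isotype control and 1048, 919 and 970.2 in the DTA-1 libraries. The groups overlapped through DTA-1 replicate 1, and the log2 fold change was -0.07 (95% confidence interval -0.21 to 0.08). Slc7a5, encoding LAT1, the carrier of leucine and other large neutral amino acids, had 579.6, 578 and 594 against 587, 612 and 620.4. Its log2 fold change was 0.06 (95% confidence interval -0.07 to 0.18), and it shares bases with Gm20388 on the opposite strand. Slc7a8, encoding the related light chain LAT2, had 734, 801 and 791 against 786, 758 and 821, with a log2 fold change of 0.02 (95% confidence interval -0.11 to 0.16). So for each of the 3 genes the interval excluded changes of 1.5-fold in either direction.

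Per kilobase, Slc7a8 was at 1.14 times the level of Slc7a5 in the isotype control and 1.12 times in the DTA-1 group. Slc3a2 was at 0.837 ± 0.050 of the summed level of its 5 detected light chains in the isotype control and 0.777 ± 0.061 in the DTA-1 group (SD, n = 3). The isotype control libraries had 0.883, 0.784 and 0.845 and the DTA-1 libraries 0.847, 0.741 and 0.743, so that DTA-1 replicates 2 and 3 were lowest and replicate 1 was among the isotype control libraries. Slc7a6, encoding y+LAT2, had 39.7, 42.9 and 36.0 normalized counts against 38.2, 42.0 and 47.7, with a log2 fold change of 0.11. Slc7a11, encoding the cystine carrier xCT, and Slc7a7, encoding y+LAT1, were tested at means below 10 and had unadjusted p above 0.05. Slc7a6os had 34.0, 37.9 and 42.7 against 40.2, 37.4 and 41.4, with a log2 fold change of 0.05.

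The cationic amino acid carriers, which take up arginine and lysine, were lower in level. Slc7a1, encoding CAT1, had 44.8, 43.1 and 50.1 normalized counts in the isotype control and 38.0, 51.9 and 45.0 in the DTA-1 libraries, with overlap and a log2 fold change of -0.03. Slc7a3, encoding CAT3, had 23.2, 23.6 and 25.9 against 16.9, 20.5 and 22.7. All DTA-1 libraries were below all isotype control libraries for Slc7a3, as for 6.03% of all genes tested, and here DTA-1 replicate 1 was the lowest. The log2 fold change was -0.27 (95% confidence interval -0.57 to 0.02; edgeR adjusted p = 0.702), and -0.17 without DTA-1 replicate 1. Slc7a2, encoding CAT2, was near the limit of detection, with at most 0.85 normalized counts in a library.

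Of the sodium-coupled carriers, Slc1a5 encodes ASCT2, which exchanges glutamine, alanine, serine and cysteine. It had 437, 476 and 475 normalized counts in the isotype control and 427, 491 and 503 in the DTA-1 libraries, and its log2 fold change was 0.03 (95% confidence interval -0.13 to 0.20). DTA-1 replicate 1 was the lowest of the 6 libraries and replicates 2 and 3 were the highest. Slc1a4, encoding the related carrier ASCT1, had 27.4, 31.9 and 31.9 against 30.1, 21 and 26.2, and its log2 fold change was -0.24 (edgeR adjusted p = 0.742). Without DTA-1 replicate 1 it was -0.37 with an adjusted p of 0.259, in a range up to 0.999. The level of Slc1a5 over Slc1a4 per kilobase was 21.7 ± 0.877 in the isotype control and 26.9 ± 6.55 in the DTA-1 group (SD, n = 3), and the groups overlapped. The glutamate carrier genes Slc1a3 and Slc1a7 were at 0 in all libraries, while Slc1a1, Slc1a2 and Slc1a6 were not tested.

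Slc38a1 and Slc38a2 encode the glutamine carriers SNAT1 and SNAT2, and per kilobase Slc38a1 was at 0.391 of the level of Slc38a2 in the isotype control and 0.390 in the DTA-1 group. Slc38a2 had 188, 207 and 195 in the isotype control and 189, 212 and 211 in the DTA-1 libraries, and its log2 fold change was 0.05 (95% confidence interval -0.10 to 0.20). Slc38a1 had 161, 178 and 191 against 171, 179 and 199.7, also with 0.05. Each pair of groups overlapped. Slc38a9, which encodes a lysosomal carrier that reports arginine to mTORC1, had 17.3, 16 and 19.9 against 16.4, 13.5 and 13.0. DTA-1 replicate 1 lay among the isotype control libraries and the other two were below them, with a log2 fold change of -0.31 (95% confidence interval -0.63 to 0.02; edgeR adjusted p = 0.702), and -0.42 (adjusted p = 0.248, of a range up to 0.999) without replicate 1. Slc38a7, encoding SNAT7 of the lysosome, had 11.8, 11.3 and 10.6 against 13.8, 10.0 and 13.5, with a log2 fold change of 0.15.

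The Slc43a genes were intermediate in level. Slc43a3, whose product carries purine nucleobases, had 96.9, 93.4 and 90.8 normalized counts in the isotype control and 85.7, 115 and 115 in the DTA-1 libraries. Its log2 fold change was 0.17 with all libraries and 0.30 without DTA-1 replicate 1 (edgeR adjusted p = 0.0754, in a range up to 0.999), again with replicate 1 below the isotype control. Slc43a2, encoding LAT4, a facilitated carrier of large neutral amino acids, had 82.4, 75.7 and 74.0 against 77.0, 62.6 and 72.6. Its groups overlapped, with a log2 fold change of -0.13, and it shares bases with the antisense gene Gm45606.

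The largest fitted changes were those of Slc38a8 and Slc16a4, which had very few reads. Slc38a8, encoding the amino acid carrier SNAT8, had 8, 1 and 0 counts in the isotype control and 55, 18 and 26 in the DTA-1 libraries, which thus lay above, with replicate 1 the highest. It passed the filter on low counts only through the DTA-1 group. Its log2 fold change of 3.58 (SE 0.94) had an unadjusted p of 0.00286 and an edgeR adjusted p of 0.627, with 0.114 to 0.999 over the settings, and it was 5.88 without isotype control replicate 1. Slc16a4, encoding MCT5, had 20, 12 and 14 counts in the isotype control against 4, 0 and 3. It likewise passed only through 1 group, with a log2 fold change of -2.49 (SE 0.84; unadjusted p = 0.0132; edgeR adjusted p = 0.632). Groups without overlap were seen for 3 transporter genes, Slc38a8, Slc16a4 and Slc7a3, beside 11.3% of all genes tested. At no more than 1.78 normalized counts in any library, Slc38a8 was far under the other Slc38a genes described.

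The 10 other genes tested with a mean below 10 were Slc2a9, Slc16a7, Slc16a10, Slc16a13, Slc38a6, Slc43a1, Slc7a2, Slc7a4, Slc7a7 and Slc7a11. Their log2 fold changes lay between -0.89 for Slc16a7 and 0.78 for Slc7a7, and none had an unadjusted p under 0.05. Not tested although above 3 counts in some library were Slc16a5, Slc16a9, Slc16a11, Slc16a12, Slc1a1, Slc1a2, Slc2a4, Slc2a10, Slc38a4, Slc38a5, Slc38a11 and Slc3a1. Slc16a8, Slc1a6, Slc2a2 and Slc7a14 had at most 3 counts in each library. Those with 0 counts throughout included Slc16a14, Slc1a3, Slc1a7, Slc2a5, Slc2a7, Slc2a12, Slc2a13, Slc38a3, Slc7a9, Slc7a10, Slc7a12, Slc7a13 and Slc7a15. The depth allows up to 0.0981 CPM for a gene at 0.

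Summed over each subfamily, the groups overlapped for all 7. The Slc16a sum was 332 ± 9.13 normalized counts in the isotype control and 386 ± 43.8 in the DTA-1 group (SD, n = 3), a log2 ratio of 0.22, of which Slc16a3 alone made up 65.7% of the reads. The Slc2a sum was 373 ± 5.89 against 414 ± 49.7, a log2 ratio of 0.15, with Slc2a1 as the largest share and Slc2a8 at 22.8%. In both sums DTA-1 replicates 2 and 3 were above the isotype control libraries and replicate 1 was not, and without it the ratios were 0.31 and 0.24. The Slc38a sum was 841 ± 22.5 against 902 ± 79.9 and the Slc7a sum 1518 ± 46.2 against 1551 ± 48.9. For Slc1a, Slc3a and Slc43a the log2 ratios were 0.02, -0.07 and 0.04. With total counts as the only scaling, the ratio of Slc1a was -0.02 and that of Slc7a -0.01, so neither has a direction. The ratio of Slc43a was 0.005 with that scaling and ranged from -0.007 to 0.097 when 1 library was left out, so it has none either. Over all 65 genes the sum was 4754 ± 74.8 in the isotype control and 4908.5 ± 212 in the DTA-1 group.

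**Figure D4:**
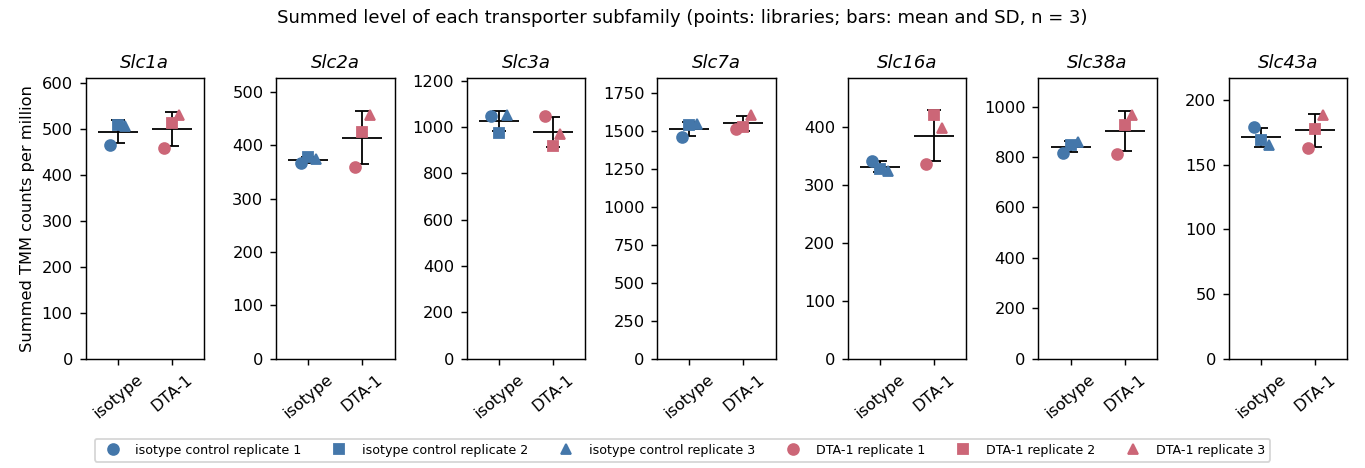
Summed normalized counts (TMM-scaled CPM) of the 7 transporter subfamilies in each library, on axes from 0, with the mean and SD of each group (n = 3). In the Slc2a and Slc16a panels DTA-1 replicates 2 and 3 sit above the isotype control libraries and replicate 1 sits among or below them, and no panel separates the groups.

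Further genes of the same transport and of the use of its cargo were taken from lists drawn from general knowledge, with 101 symbols, of which 98 were in the table and 80 were tested. None was called with all 6 libraries by edgeR or DESeq2, with 41 fitted higher and 39 lower, and 13 had an unadjusted p under 0.05, 10 higher and 3 lower. At that p, 7.22% of all genes passed. The lists were chosen with earlier results of these data known, so a share above that of all genes is a description and no support. All genes tested were 6901 higher and 7460 lower. Of 20 tested genes for amino acid sensing at the lysosome, such as subunits of the Ragulator and GATOR complexes, 5 were fitted higher and 15 lower, and 1 had an unadjusted p under 0.05. Of 20 tested enzymes that first use or last make the cargo, 14 were fitted higher and 6 lower, and 5 had such a p (25.0%). Of 17 regulators of carrier transcription or surface level, 8 were higher and 9 lower, and 6 had such a p (35.3%). Of 20 other carriers outside the name rule, 11 were higher and 9 lower, and 1 had such a p.

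Tph1, encoding tryptophan hydroxylase, the first enzyme of serotonin synthesis, was the only gene of the lists that was called without DTA-1 replicate 1. It had 21.3, 16.8 and 17.6 normalized counts in the isotype control and 19.2, 62.3 and 57.1 in the DTA-1 libraries. As for Slc2a6, replicate 1 was within the isotype control range and the other two were far above it. The log2 fold change was 1.32 (SE 0.39; edgeR adjusted p = 0.627) with all libraries and 1.68 (SE 0.12; adjusted p = 0.000121) without replicate 1, and the settings spanned 0.000121 to 0.999. Cpa3 and Cma1, given above, also had their highest values in these libraries, and their part in the level of Tph1 was not tested.

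Epas1, encoding HIF-2α, had 6.64, 8.18 and 6.86 normalized counts in the isotype control and 11.2, 13.3 and 11.3 in the DTA-1 libraries. The groups did not overlap, and DTA-1 replicate 1 was with its own group. The means were 7.23 ± 0.834 and 11.9 ± 1.21 (SD, n = 3), with a log2 fold change of 0.72 (SE 0.17; unadjusted p = 0.00142; edgeR adjusted p = 0.627, with 0.0805 to 0.997 over the settings). Slc6a19, encoding the neutral amino acid carrier B0AT1, met the same unadjusted rule at 1.44, 1.68 and 0.879 against 1.68, 2.56 and 3.61, with a log2 fold change of 0.97. Its level was low, and the smallest edgeR adjusted p among the other carriers outside the name rule, its list, was 0.657. Hk2, encoding hexokinase 2, which traps glucose after uptake, and Hif1a, encoding HIF-1α, are named after their values were seen, as the other genes of the lists with an adjusted p under 0.05 without DTA-1 replicate 1. Hk2 had 89.6, 99.2 and 88.7 against 98.0, 119 and 128. Its log2 fold change was 0.31 (edgeR adjusted p = 0.627) and without that library 0.42 (adjusted p = 0.0343, of a range up to 0.999), while Hif1a, at 824, 967.5 and 890.4 against 950.5, 1108 and 1137, had 0.25 and 0.33 (adjusted p = 0.0478, also up to 0.999).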

How the data were processed

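RNA of cultured, sorted VAT ILC2s was sequenced in 6 libraries, each prepared from 10 ng of total RNA. According to the submitters' processing notes, bcl2fastq 2.17.1.14, STAR 2.5.3a and Partek were used with mm10. The authors deposited 1 table of estimated counts per gene, not all of them whole, and how shared reads or strand were treated is not given in the sources used here. The counts were rounded and tested with edgeR 4.0.16 in R 4.3.3 (filterByExpr by group, TMM scaling, robust quasi-likelihood test, Benjamini-Hochberg adjustment over 14361 genes), and a call needed an adjusted p under 0.05 and 1.5-fold. DESeq2 1.42.0 and limma 3.58.1 were alternatives, with other scalings, other filters on low counts, a replicate block and each library left out. The steps were tested on simulated data with 3 libraries a group and 200 genes changed 2-fold. They called 122 of these genes (61%) and made 7 false calls. Exon lengths were from GENCODE M21 (GRCm38). Gene positions are 1-based.

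Genes with a mean of at least 10 normalized counts, those with an unadjusted p under 0.05 and 1.5-fold, and those called without DTA-1 replicate 1 are described per library, and list genes by the latter criteria. Members and lists were chosen with earlier results of these data known, and no test over a list was made. The same replicate numbers occur in both groups without a stated pairing. A few genes are not reported here.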

Additional observations from a re-analysis of the deposited data

How the results depend on the processing

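With all 6 libraries edgeR called 0 transporter genes, 0 genes of the pathway lists and 0 of all genes. Leaving out 1 library gave 0 to 1 transporter genes, 0 to 1 list genes and 0 to 111 of all genes, in each case with the highest number without DTA-1 replicate 1. The unadjusted rule gave 3 transporter genes, 3 list genes and 337 of all genes. Of all genes, DESeq2 called 25, limma 0, and 2 were called without a filter on low counts. A fit with the replicate number as a block called 0 transporter genes and 1 of all genes. Deviations of libraries with the same number had correlations of -0.0069, -0.0028 and 0.0152, so the numbers were not taken as pairs.

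Small fitted log2 fold changes turned direction. With total counts as the only scaling, Slc1a5 was -0.0041, Slc2a8 -0.022 and Slc7a8 -0.013, where the median of all genes moved from -0.01 to -0.04. Over the fits that left out 1 library, Slc16a1 ranged from -0.039 to 0.12, Slc1a5 from -0.011 to 0.10, Slc2a8 from -0.068 to 0.060, Slc38a1 from -0.018 to 0.11, Slc7a1 from -0.14 to 0.076, Slc7a6os from -0.019 to 0.14 and Slc7a8 from -0.010 to 0.057. The cause was not tested. Of the genes named, only Slc2a6, Slc16a3 and Slc38a10 passed the adjusted threshold under some setting among the transporters, each without DTA-1 replicate 1. All 12 transporter genes tested with a mean below 10 normalized counts had intervals that reached beyond 1.5-fold. Those of Slc38a8 and Slc16a4, which had very few reads, spanned several log2 units. Little can thus be said of the size of change of these genes.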
